A study of Rattus norvegicus with 36 samples.

Results

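Small RNA-seq of colon tumors (PST) was compared with that of normal-looking colon (PSN) in polyposis in rat colon (Pirc) rats given dietary spinach (SPI). The comparison held 6 libraries, 3 for PST and 3 for PSN, of the 18 small RNA libraries and 36 libraries of both assays in the study, and its members were taken by their labels alone. Pirc rats are male F344/NTac-Apc am1137 animals that carry a germline mutation of Apc, the tumor suppressor that restrains β-catenin in Wnt signaling, and they form colon tumors without a carcinogen. PST and PSN rats alike carried the mutation and were fed AIN93 diet with 10% w/w freeze-dried baby SPI from 4 weeks of age, and tissue was collected at 30 weeks. The submitters label PSN as Pirc rats without tumor and PST as Pirc rats with tumor, whereas the study describes both tissues as matched samples of the same animal. The remaining groups were PCT and PCN (tumor and normal-looking colon of Pirc rats on AIN93 control diet) and the colon of wild-type rats on control diet (WCN) or SPI (WSN). Pieces of whole tissue were lysed, so a lower value may stand for fewer cells of a type or less RNA per cell, and these cannot be told apart.

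MicroRNAs (miRNAs) are short RNAs of about the length of the sequences printed here, cut from a hairpin precursor whose 5p and 3p arms can both give a mature miRNA. They guide the silencing complex to messenger RNAs mainly through the seed, bases 2 to 8 from the 5′ end, so miRNAs with a common seed share many predicted targets. In the gut, miR-143 and miR-145 are known from smooth muscle and mesenchyme, miR-192, miR-194 and miR-215 from the absorptive epithelium, miR-17 and its relatives from proliferating cells under Myc, miR-34a from the p53 response, and miR-21 and miR-146 from tumors and inflammation.

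The sequences of the miRNAs on which the results turn are given 5′ to 3′ with the seed in capitals. They are RefSeq mature sequences of the GRCr8 assembly, in which 510 of the 559 miRNA names of the table had an entry. The miRNAs that were lower in PST came first from a pair of neighboring hairpins on chromosome 18, and then from the miR-1 and miR-215 seed families, with miR-192-5p shown because it has the seed of miR-215.
miR-143-3p: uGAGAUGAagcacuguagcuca
miR-145-5p: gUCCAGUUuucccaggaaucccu
miR-145-3p: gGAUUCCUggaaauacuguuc
miR-1-3p: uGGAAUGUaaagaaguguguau
miR-206-3p: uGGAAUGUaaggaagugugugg
miR-215: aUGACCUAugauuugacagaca
miR-192-5p: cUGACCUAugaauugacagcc
miR-375-3p: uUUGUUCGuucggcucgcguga
miR-22-5p: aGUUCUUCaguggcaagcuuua

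The miRNAs that were higher in PST are listed by seed. The miR-17 seed was shared by 5 tested miRNAs, and the pairs miR-146a with miR-146b and miR-132 with miR-212 also share a seed.
miR-21-5p: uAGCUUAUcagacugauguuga
miR-34a-5p: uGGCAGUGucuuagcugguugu
miR-17-5p: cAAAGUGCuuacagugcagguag
miR-20a-5p: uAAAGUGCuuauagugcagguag
miR-20b-5p: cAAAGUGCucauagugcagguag
miR-93-5p: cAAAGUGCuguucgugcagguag
miR-106b-5p: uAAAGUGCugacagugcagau
miR-146a-5p: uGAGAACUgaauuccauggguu
miR-146b-5p: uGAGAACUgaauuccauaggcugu
miR-132-3p: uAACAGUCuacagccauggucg
miR-212-3p: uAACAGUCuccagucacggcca

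Some names in the table share reads, and a last set of sequences shows how. The values of miR-3571 followed those of miR-1-3p to within 10% or 2 reads in all 18 libraries, and its sequence matches the reverse complement of miR-1-3p over 21 bases. Likewise miR-3065-3p had the values of miR-338-5p, with 19 bases of reverse complement match. In all, 110 tested names with a mean of at least 5 over the 18 libraries fell into 52 groups of such like values, and in 35 pairs the stretch in common was at least 16 bases of the opposite strand. Names within a group are described as sharing reads and are read as 1 measurement.
miR-3571: uACACACUucuuuacauuccaua
miR-338-5p: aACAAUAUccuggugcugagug
miR-3065-3p: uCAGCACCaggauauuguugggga

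The values are normalized read counts, that is, reads divided by 1 factor for each library. The reads behind them ranged from 3344089 to 5376082 in PSN and from 724954 to 4485011 in PST, where PST2 was the shallowest of the 18 libraries and 1 of its reads equals a normalized count of 3.07. The libraries correlated with r of 0.967 to 0.977 within PSN, 0.953 to 0.960 within PST and 0.925 to 0.954 between them. Epithelial genes were high in the RNA-seq libraries of both tissues (Krt19, 3052 to 4361 RPKM, and Epcam, 1177 to 1811 RPKM over the 6 libraries). PSN, called mucosa in the study, also held smooth muscle genes, with Tagln at 818 to 1237 RPKM.

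Tumor and normal-looking colon differed in 109 of 494 tested miRNAs (22.1%) at an adjusted p below 0.05 in limma. Of these, 37 were higher in PST (7.49% of those tested) and 72 were lower (14.6%). Since some names share reads, the 109 calls are at most 90 distinct profiles, 34 higher and 56 lower, as names with a mean under 5 over the 18 libraries were not grouped. The log2 fold changes are on a scale of log2(normalized count + 0.5), on which those of low miRNAs are inexact. They can be understated, or enlarged by 1 shallow library. For miR-341 the log2 fold change was -2.94 in the main fit and -1.48 without PST2. A mean of at least 50 in PST or PSN was reached by 67 of the called miRNAs. The groups did not overlap in 98 of the called miRNAs, against 160 of all 494 (32.4%). The balance of calls depended on the scaling. When each library was scaled to its summed miRNA count instead, the median log2 fold change of all miRNAs moved by 0.23, from -0.18 to 0.04, and the higher calls became 66 of 120 (55%), up from 33.9%. The count was 63 without PSN1 and 71 without PSN3, the lower calls alone went from 72 to 47 without PST2, and 67 were called when only the 6 libraries of the comparison were fitted. Of the 109, 46 were called under all 29 alternatives that tested them.

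**Figure D1:**
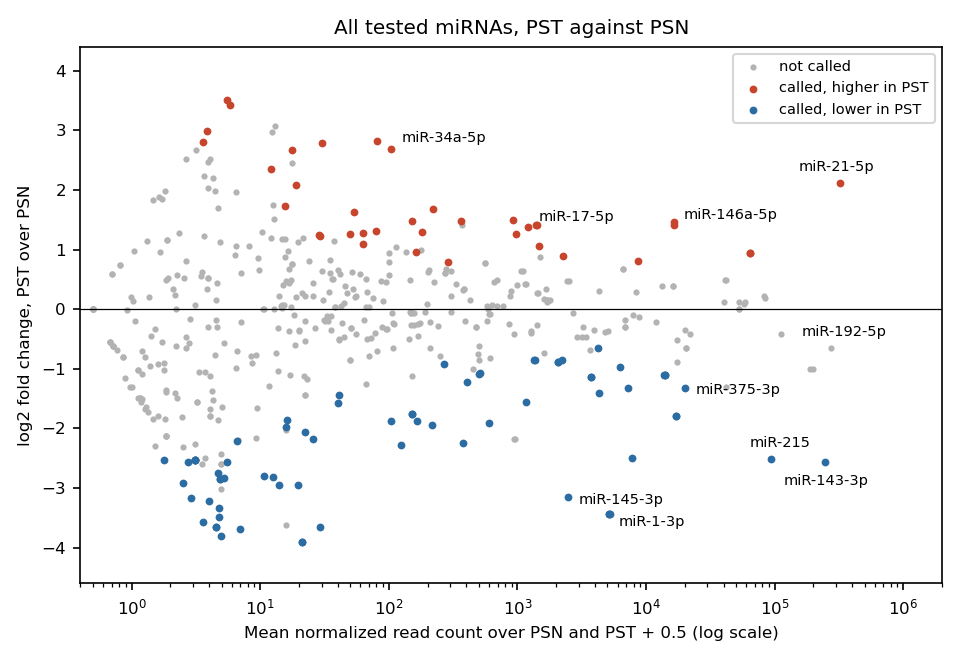
Each point is 1 of 494 tested miRNAs, with its mean normalized read count over PSN and PST plus 0.5 on a log axis and its log2 fold change of PST over PSN on the vertical axis, and colors mark the 37 miRNAs called higher and the 72 called lower. The most abundant called miRNAs, miR-21-5p, miR-143-3p and miR-215, lie at the right, and many of the largest falls lie at mean counts below 50.

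miR-21-5p, a miRNA raised in many solid tumors, was the most abundant miRNA of every PST library. Its normalized counts were 61313, 196890 and 134510 in PSN1 to PSN3, and 508815, 437680 and 592803 in PST1 to PST3. All 3 tumors lay above all 3 normal-looking samples, and miR-21-5p made up 19.7 to 21.5% of the summed counts in PST against 2.16 to 5.57% in PSN. The mean was 3.92 times higher in PST (log2 fold change 2.12, SE 0.29, adjusted p = 1.55e-05, limma). The 3p arm of the same hairpin was scarce and rose as well, from 3.16, 9.52 and 9.0 in PSN to 70.1, 58.3 and 27.2 in PST (log2 fold change 2.79, SE 0.51, adjusted p = 0.00037). Thus both arms of miR-21 were separated between the tissues, while their levels differed by orders of magnitude.

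miR-34a-5p, a direct target of p53 that restrains the cell cycle, also rose. It was counted at 34.3, 28.6 and 19.3 in PSN and at 218.6, 184.1 and 133.9 in PST, with no overlap (log2 fold change 2.70, SE 0.43, adjusted p = 9.04e-05). The other tested members of the list of miR-34 and miR-449 did not pass the test. Of its 7 tested members, 1 rose (7.49% of all miRNAs rose) and none fell, with a median log2 fold change of 0.66 against -0.18 over all miRNAs. miR-34b-5p (mean 30.3 in PSN, 48.5 in PST) and miR-34c-5p (45.5 and 59.0) had adjusted p of 0.15 and 0.48. Scaled to summed counts, 3 of the 7 rose. The study set miR-34a beside Klf4, a transcription factor of differentiated surface epithelium. By quantitative PCR (qPCR) it describes a gain of miR-34a with reduced Klf4 in colon tumors, and a reversal of that trend by SPI. In its qPCR of Pirc tumors without SPI, miR-34a was not significant. The correlation of miR-34a with Klf4 across samples was not tested here. In RNA-seq, Klf4 was at 79.0, 76.6 and 61.5 RPKM in PSN and at 23.3, 23.7 and 17.9 RPKM in PST (log2 fold change -1.72, SE 0.21, adjusted p = 2.47e-05). In that assay 42.3% of 11544 genes were called, and 16.5% of the 11544 were called lower in PST, so a called gene is common there.

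**Figure D2:**
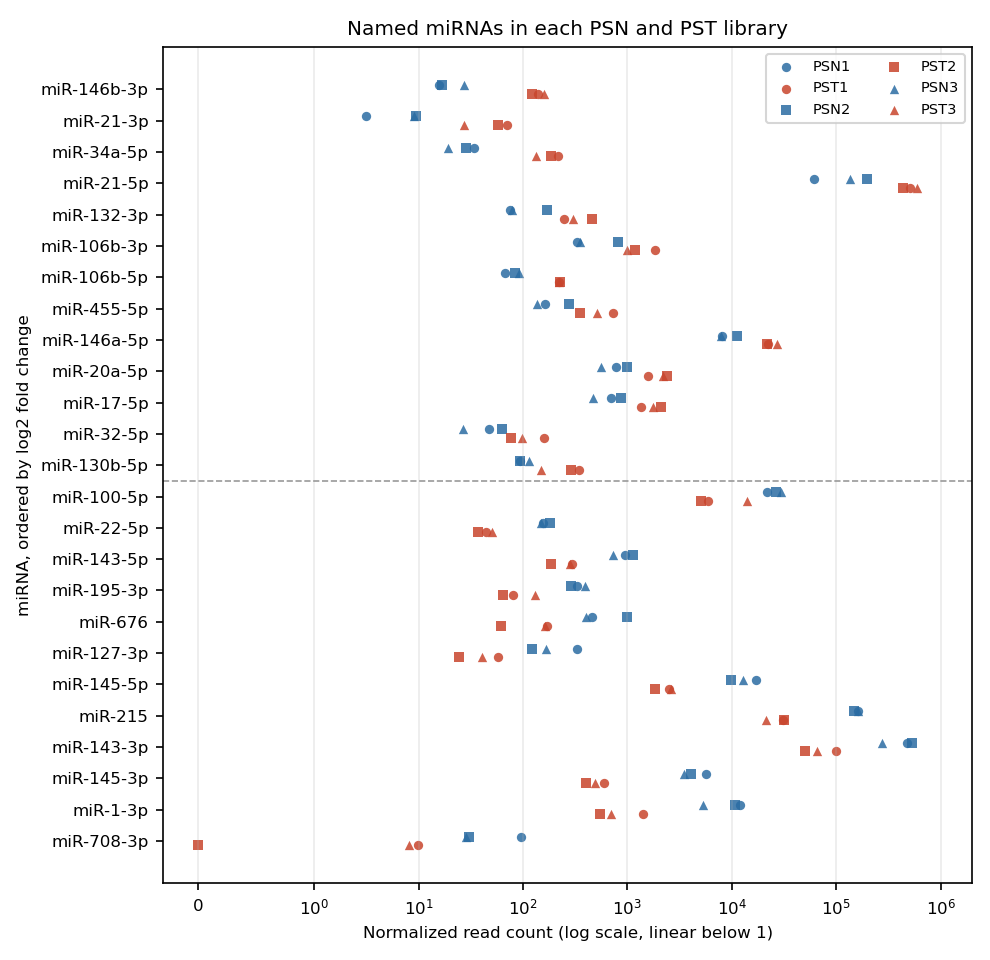
Normalized read counts of the largest non-overlapping rises (above the dashed line) and falls (below it), together with miR-143-5p and miR-21-3p, in each PSN (blue) and PST (red) library on an axis that is logarithmic above 1. Marker shape gives the replicate, and 1 name stands for each group that shares reads, so miR-1-3p also stands for miR-1b and miR-3571. The red and blue points of each miRNA do not overlap, and miR-708-3p was not counted in PST2.

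The miR-17/92 cluster and its paralogs, which are known for driving proliferation and for their control by Myc, were higher in PST as a group. Of 22 tested members, 11 rose (7.49% of all miRNAs rose) and none fell, with a median log2 fold change of 1.14 (-0.18 over all miRNAs). When only the 6 libraries of the comparison were fitted, 6 of the 22 rose. miR-17-5p went from 691, 864 and 472 in PSN to 1339, 2093 and 1773 in PST (log2 fold change 1.38, SE 0.30, adjusted p = 0.0015). miR-20a-5p and miR-20b-5p, which share reads, went from means of 779 and 760 to 2055 and 2005 (log2 fold changes 1.41 and 1.41). miR-18a-5p was scarce in PSN at 1.05, 7.40 and 6.43, and was at 39.1, 30.7 and 17.3 in PST (log2 fold change 2.67, SE 0.59, adjusted p = 0.0020). All 3 tumors were above all 3 normal-looking samples in each of these.

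The miR-106b cluster lies within Mcm7, a subunit of the replicative helicase. miR-106b-3p was counted at 331, 814 and 352 in PSN and at 1846, 1184 and 988 in PST (log2 fold change 1.502, SE 0.35, adjusted p = 0.0034). miR-106b-5p rose from a mean of 80.6 to 223.6 (log2 fold change 1.48) and miR-93-5p from 977 to 1966 (1.06), although the call of miR-93-5p was lost without PSN3 (adjusted p = 0.057). The third hairpin of that cluster did not follow, as miR-25-3p was at 7894, 7902 and 8553 in PSN and at 6292, 8165 and 8591 in PST (log2 fold change -0.09, adjusted p = 0.81). Mcm7 mRNA itself was at 15.99, 12.62 and 25.79 RPKM in PSN and at 54.2, 52.6 and 52.1 RPKM in PST (log2 fold change 1.58, SE 0.28, adjusted p = 0.00046). miR-92a-3p, the most abundant called member, rose from a mean of 6132 to 11093 (log2 fold change 0.81, adjusted p = 0.035), and this call was lost without PSN1, PSN3, PST2 or PST3 (highest adjusted p = 0.14).

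Of 23 tested inflammation miRNAs, 7 rose, where 7.49% of all miRNAs rose, and none fell (median log2 fold change 0.61). miR-146a-5p and miR-146b-5p, feedback inhibitors of NF-κB signaling that share reads here, were the most abundant of them. miR-146a-5p was counted at 7980, 11161 and 7848 in PSN and at 22397, 21783 and 27103 in PST (log2 fold change 1.41, SE 0.25, adjusted p = 0.00030). The other arm of miR-146b has a sequence of its own and went from 15.8, 16.9 and 27.0 to 138.6, 122.7 and 159.2 (log2 fold change 2.82, SE 0.39, adjusted p = 1.52e-05), whereas miR-146a-3p was at a mean of 13.9 in PSN and 12.4 in PST. The neighboring pair miR-132 and miR-212, which CREB activity is known to induce, rose too. miR-132-3p was at 75.4, 170.3 and 78.4 in PSN and at 246.3, 454.1 and 299.4 in PST (log2 fold change 1.68, SE 0.36, adjusted p = 0.0014), and miR-212-3p went from a mean of 6.74 to 29.97 (log2 fold change 2.08, adjusted p = 0.0034). miR-223-3p, the granulocyte miRNA, was at 87.0, 113.1 and 121.5 in PSN and at 130.5, 224.0 and 301.2 in PST (log2 fold change 0.96, adjusted p = 0.025). That call was lost without PSN1, PST2 or PST3 (highest adjusted p = 0.12). miR-155-5p, miR-142-3p and miR-150-5p had log2 fold changes of 0.21, 0.45 and -0.07 with adjusted p of 0.43 or more.

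Neutrophil markers and some T cell markers were higher in the same tumors. In the RNA-seq libraries 5 of 6 tested neutrophil markers rose in PST (25.9% of all genes rose), and their summed level was 35.2 to 51.6 RPKM in PSN and 197.4 to 1735 RPKM in PST. For T cells, 3 of 6 markers rose, from sums of 34.0 to 41.3 RPKM to 64.9 to 136.6 RPKM, and for macrophages 1 of 6 rose and 1 fell. None of 4 tested B and plasma cell markers passed the test, with sums of 10.75 to 35.6 RPKM in PSN and 4.13 to 13.5 RPKM in PST. The defining neutrophil receptor genes Csf3r and Cxcr2 were at 0 to 0.17 RPKM in PSN and at 1.47 to 3.82 RPKM in PST. The part of these cells in the miRNA differences was not tested.

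**Figure D3:**
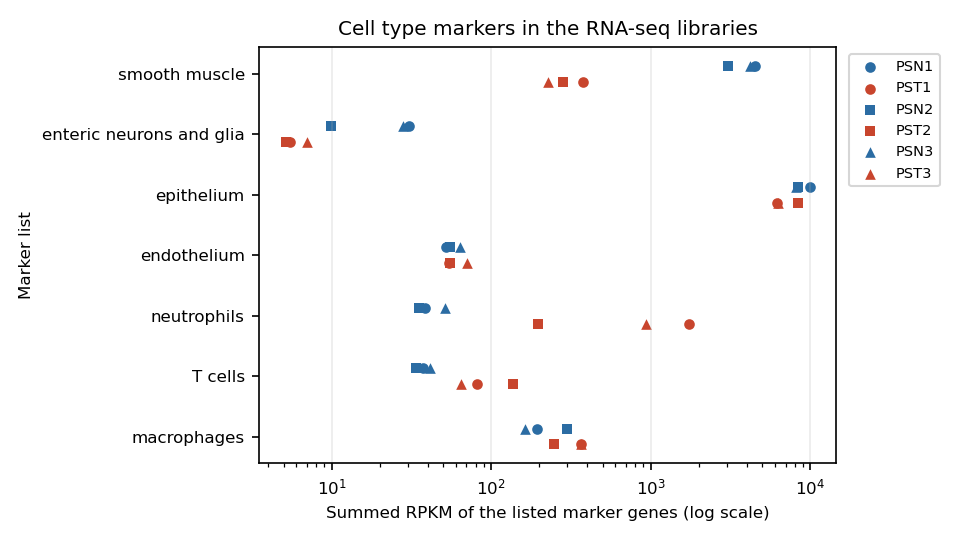
Summed RPKM of the listed marker genes of 7 cell types on a log axis, with PSN libraries in blue, PST libraries in red and marker shape for the replicate. The smooth muscle sum lies at 3048 to 4522 RPKM in PSN and 227 to 378 RPKM in PST, and the neutrophil sum runs the other way.

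Among miRNAs often raised in colorectal cancer, 4 of 16 tested rose (7.49% of all miRNAs rose) and none fell, with a median log2 fold change of 0.31. The 4 were miR-21-5p and miR-21-3p, which are arms of 1 hairpin, miR-96-5p and the scarce miR-183-3p. The call of miR-183-3p was lost when any 1 of the 6 libraries of the comparison other than PST3 was left out. miR-96-5p, of the miR-183/96/182 cluster, was at 366, 707 and 609 in PSN and at 1034, 982 and 2163 in PST (log2 fold change 1.27, adjusted p = 0.019), a call that was lost without PSN1 (adjusted p = 0.11) or PST3 (0.10). Its abundant neighbors miR-183-5p and miR-182 had means of 5099 and 11507 in PSN and of 8130 and 15047 in PST, and their groups did not overlap, but their adjusted p were 0.080 and 0.23. Under summed-count scaling both passed the test (adjusted p = 0.011 and 0.046). miR-135b-5p was at a mean of 0.64 in PSN and 24.4 in PST with an adjusted p of 0.053, and miR-31a-5p was at 114.8 and 103.7.

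The remaining large rises came from miRNAs with fewer known roles in the colon. miR-455-5p was at 162, 277 and 138 in PSN and at 734, 353 and 514 in PST (log2 fold change 1.47, SE 0.34, adjusted p = 0.0026). miR-130b-5p rose from a mean of 100.2 to 259.6 (log2 fold change 1.29, adjusted p = 0.016), a call that was lost without PSN1, PST1 or PST2 (highest adjusted p = 0.073). miR-32-5p, which has the seed of miR-92a-3p, rose from 45.4 to 111.8 (log2 fold change 1.31, adjusted p = 0.016), and that call was lost without PSN3 or PST1 (0.096 and 0.079). miR-27a-3p and miR-27b-3p, which share reads, were at means of 43204 and 43429 in PSN and of 84345 and 84967 in PST. Their calls (adjusted p = 0.018) were lost with same-numbered libraries as a replicate block (adjusted p = 0.067) and without PSN1, PSN3 or PST3 (highest adjusted p = 0.11). PSN2 overlapped with the tumors.

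The muscle miRNAs had the lowest median of the lists. Of 13 tested members, which are 9 distinct profiles, 8 fell (14.6% of all miRNAs fell) and none rose, with a median log2 fold change of -2.13. miR-143-3p, the most abundant miRNA of PSN1 and PSN2, was counted at 473673, 528009 and 273838 in PSN and at 98933, 50687 and 65242 in PST (log2 fold change -2.57, SE 0.32, adjusted p = 8.52e-06). It made up 10.6 to 16.7% of the summed counts in PSN and 2.28 to 4.17% in PST. miR-145-5p, cut from the neighboring hairpin, was at 17179, 9935 and 12779 in PSN and at 2510, 1844 and 2629 in PST (log2 fold change -2.49, SE 0.35, adjusted p = 2.07e-05). The minor arms fell with the major arms. miR-145-3p was at 5718, 4102 and 3486 in PSN and at 597, 399 and 485 in PST (log2 fold change -3.15, SE 0.32, adjusted p = 4.64e-07), the lowest p of the comparison, and miR-143-5p went from a mean of 944 to 253.6 (log2 fold change -1.90).

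miR-1-3p, best known from heart and skeletal muscle, was at 12025, 10745 and 5255 in PSN and at 1411, 546 and 699 in PST, a mean 10.6 times lower in tumors (log2 fold change -3.43, SE 0.43, adjusted p = 8.52e-06). miR-206-3p, with the seed of miR-1-3p, went from 54.9, 108.9 and 20.6 to 16.3, 9.21 and 29.6 with overlap, and its call (adjusted p = 0.025) was lost with the replicate block (0.095) and without PSN1, PSN2, PST1 or PST2 (highest 0.14). The 3 names of miR-133, whose values were the same, were at a mean of 2.73 in PSN and 0 in PST (adjusted p = 0.17), and miR-499-5p and miR-486 had log2 fold changes of -0.25 and -0.05.

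Smooth muscle genes moved with these miRNAs. All 10 listed smooth muscle markers fell in PST (16.5% of all genes fell), the call of Smtn being lost in 8 alternatives (highest adjusted p = 0.13), and their summed level was 3048 to 4522 RPKM in PSN and 227 to 378 RPKM in PST. Of these, Myh11, the smooth muscle myosin heavy chain, was at 347.5, 225.7 and 313.9 RPKM in PSN and at 25.9, 17.6 and 11.1 RPKM in PST. Of 9 skeletal muscle markers, 7 stayed below 1 RPKM in all 6 libraries, including Myh1, Myh2 and Myh4. The others were Acta1, at 8.56 to 14.65 RPKM, and Ckm, the muscle creatine kinase, which fell from a mean of 2.82 to 0.22 RPKM (adjusted p = 0.0092). The part of muscle tissue in the lower values of the muscle miRNAs was not tested.

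The epithelial miRNAs of the miR-192 seed did not move alike. miR-215 was at 162482, 147966 and 163592 in PSN and at 30978, 31641 and 21280 in PST, a mean 5.65 times lower in tumors with no overlap (log2 fold change -2.52, SE 0.41, adjusted p = 0.00021). miR-192-5p, which has the same seed, was at 334653, 277575 and 381986 in PSN and at 289301, 208191 and 150056 in PST, where PST1 overlapped with PSN2 (log2 fold change -0.66, SE 0.28, adjusted p = 0.092). miR-194-5p, cut from hairpins beside each of them, had a log2 fold change of -0.17 (adjusted p = 0.65). Of the 5 tested members of this list, 1 fell (14.6% of all miRNAs fell). The enteroendocrine miRNA miR-375-3p was at 24618, 29830 and 31871 in PSN and at 12489, 10368 and 11475 in PST (log2 fold change -1.33, SE 0.28, adjusted p = 0.0014). In RNA-seq, epithelial markers summed to 8077 to 9964 RPKM in PSN and 6170 to 8324 RPKM in PST. Of these, 2 of 9 fell and 1 rose (16.5% and 25.9% over all genes).

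Other abundant miRNAs fell to smaller degrees. miR-100-5p and miR-99a-5p, which share reads, were at 21964, 26652 and 29598 (miR-100-5p) in PSN and at 5947, 5121 and 13862 in PST (log2 fold change -1.79, SE 0.35, adjusted p = 0.00068). miR-125b-5p, a frequent neighbor of that family in the genome, went from a mean of 232.5 to 71.6 (log2 fold change -1.75), and miR-125a-5p, with the same seed, from 6232 to 2385 (-1.40). miR-139-5p, which lies within Pde2a, was at 2204, 1531 and 1491 in PSN and at 581, 595 and 567 in PST (log2 fold change -1.56, SE 0.31, adjusted p = 0.00072). The tumors were alike in it and all below PSN. miR-26b-5p went from a mean of 10371 to 4037 (log2 fold change -1.33, SE 0.23, adjusted p = 0.00021).

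The other named falls were of lower abundance. miR-22-5p was at 154.6, 180.8 and 149.1 in PSN and at 44.0, 36.8 and 50.0 in PST (log2 fold change -1.88, SE 0.28, adjusted p = 3.73e-05). miR-676, from within the ectodysplasin gene Eda, was at 463, 992 and 401 in PSN and at 169.6, 61.4 and 164.2 in PST (log2 fold change -2.24, SE 0.40, adjusted p = 0.00033). miR-195-3p, from a hairpin of the miR-15/16 family, fell from a mean of 338.8 to 91.5 (log2 fold change -1.93). miR-708-3p was at 96.5, 30.7 and 28.3 in PSN and at 9.79, 0 and 8.02 in PST (log2 fold change -3.65, SE 0.80, adjusted p = 0.0020), where a count of 0 in PST2 allows up to 3 reads. The endothelial miR-126a-5p fell from 772, 704 and 613 to 292, 301 and 409 (log2 fold change -1.07, adjusted p = 0.0050), while its major arm miR-126a-3p was at a mean of 25420 in PSN and 18447 in PST (-0.42, adjusted p = 0.24). The endothelial marker sum was 51.9 to 63.4 RPKM in PSN and 54.1 to 70.9 RPKM in PST.

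The imprinted Dlk1-Dio3 cluster on chromosome 6, a large group of hairpins expressed from the maternal allele, was mostly lower in PST. Of 59 tested members 3 had log2 fold changes above 0. The rest were below 0, except miR-3072, which was not counted in PSN or PST. The median was -1.56 (-0.18 over all miRNAs). Of the 59, 20 fell (14.6% of all miRNAs fell) and none rose, and these 20 names are at most 17 distinct profiles. Only 8 of the 59 had a mean of at least 50, and 3 of these fell. miR-127-3p was at 331, 123 and 165 in PSN and at 57.1, 24.5 and 40.7 in PST (log2 fold change -2.28, SE 0.48, adjusted p = 0.0015). miR-379-5p was at 380, 224 and 145 in PSN and at 155, 36.8 and 42.6 in PST, where PST1 exceeded PSN3, and its call (adjusted p = 0.020) was lost without PSN1, PST2 or PST3 (highest 0.098). miR-770-5p, miR-381-3p and miR-300-3p had adjusted p of 0.17, 0.48 and 0.52. The count of falls rested on single libraries, with 5 left without PST2, 7 without PSN1 and 8 without PSN3, and also 8 when only the 6 libraries were fitted, and 14 of the 20 were not counted at all in PST2.

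Of 23 tested neural miRNAs, 6 fell, where 14.6% of all miRNAs fell, and none rose (median log2 fold change -1.50). With a filter of at least 10 in 3 libraries, 13 were tested, 3 fell and the median was -0.20, close to that of all miRNAs (-0.07 under that filter). The called ones were scarce. miR-129-1-3p and miR-129-2-3p, whose values are identical, were at a mean of 8.11 in PSN and at 0 in all 3 PST libraries, at least 6.92-fold lower if 3 reads are allowed over the PST group. In the same way miR-384-5p was at least 5.24-fold lower. Without PSN1 only 1 neural miRNA was called. The abundant miR-204-5p, which shares reads with miR-211-5p, was at 3075, 449.4 and 1073 in PSN and at 833, 227 and 83.3 in PST with overlap, and was called only with the replicate block (adjusted p = 0.17 without and 0.013 with it). Markers of enteric neurons and glia summed to 9.97 to 30.5 RPKM in PSN and to 5.15 to 7.01 RPKM in PST, and 6 of 9 tested fell (16.5% of all genes fell). The part of these cells in the neural miRNA values was not tested.

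**Figure D4:**
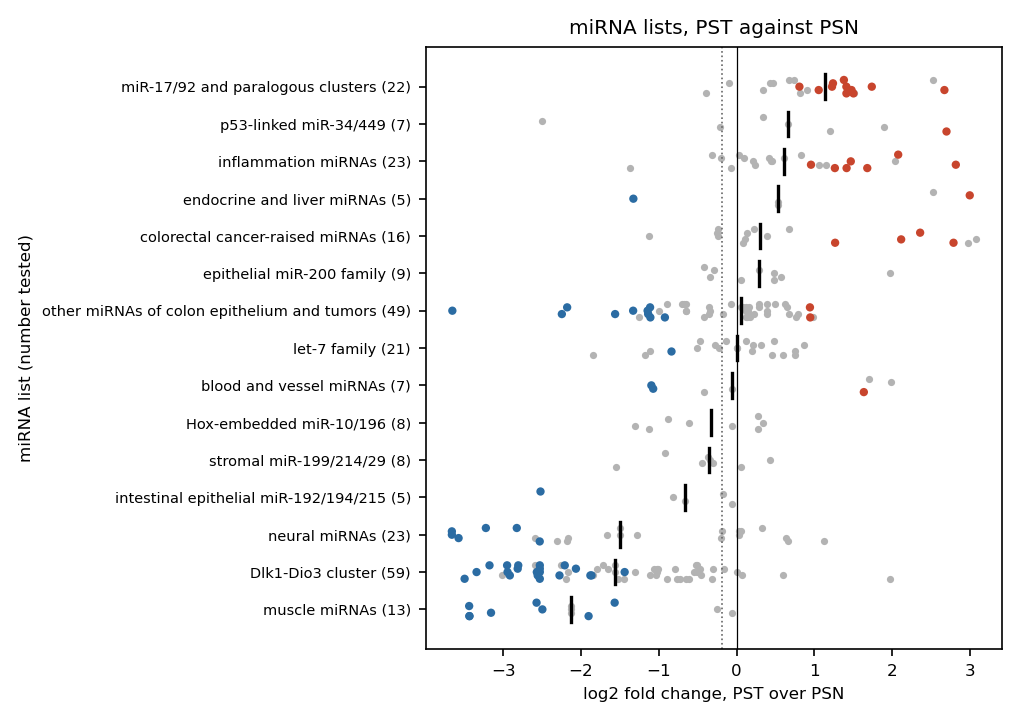
Each point is a tested miRNA of a list with its log2 fold change of PST over PSN, in red or blue where it was called and gray otherwise, with a black bar at the list median and a dotted line at the median of all miRNAs (-0.18). The muscle, Dlk1-Dio3 and neural lists lie left of the line with medians of -2.13, -1.56 and -1.50 (the neural median was -0.20 with scarce miRNAs filtered out), and the miR-17/92 list lies to the right at 1.14.

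Several abundant families showed no call. The miR-200 family, which maintains the epithelial state, had 9 tested members and none passed the test. Its most abundant member miR-200b-3p was at 127759, 132859 and 119167 in PSN and at 86286, 118385 and 83247 in PST (log2 fold change -0.42, adjusted p = 0.19). By contrast miR-200a-3p and miR-141-3p, which share reads and are 1 measurement, pointed the other way (0.48 and 0.49, adjusted p = 0.11 for both). Under summed-count scaling they passed the test (0.028). Of 21 tested let-7 miRNAs only let-7e-5p fell (log2 fold change -0.85, adjusted p = 0.046), and this call was lost without any of the 6 libraries of the comparison other than PSN2 (highest adjusted p = 0.21). let-7a-5p was at a mean of 52990 in PSN and 52269 in PST. No member of the miR-10 and miR-196 list and none of the stromal list of miR-199, miR-214 and miR-29 passed the test, with 8 tested in each and medians of -0.33 and -0.36. Of 5 tested endocrine and liver miRNAs, miR-375-3p fell and the scarce miR-802-3p rose, from a mean of 0.35 to 6.404 (adjusted p = 0.042), a call lost without PSN2, PSN3, PST1, PST2 or PCN3. The list of other colon miRNAs gave 2 rises and 10 falls among 49 tested (7.49% and 14.6% over all miRNAs), or 7 and 7 under summed-count scaling, with a median of 0.05, and its most abundant member miR-148a-3p had a log2 fold change of -1.002 (adjusted p = 0.051). Of 7 blood and vessel miRNAs, 2 names of miR-126 fell and the erythroid miR-451-5p rose from a mean of 21.7 to 85.1 with overlap (adjusted p = 0.046), a call lost without any of the 6 libraries of the comparison other than PST3.

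Seed, arm and position were set beside the calls as properties that the test did not use. A RefSeq sequence was available for 450 tested and 99 called miRNAs. All 5 tested miRNAs with the seed of miR-17-5p rose, although 2 of them share reads, and all 3 with the seed of miR-1-3p fell, of which 2 share reads. Both arms were tested for 144 hairpins. In 58 of these at least 1 arm was called, and 54 of the 58 had both arms on the same side of 0, against 102 of all 144. The arms of miR-299a and miR-299b have identical values, and miR-338 and miR-3065 share reads, so that their like signs were fixed. The exceptions included miR-30a, whose major arm miR-30a-5p had a log2 fold change of 0.09 (adjusted p = 0.82) while miR-30a-3p fell by 1.14 on the log2 scale.

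Hairpins that lie within 10 kb on the same strand in GRCr8 moved alike in some clusters and not in others. On chromosome 18, all 4 tested mature miRNAs of miR-143 and miR-145 fell. The miR-17/92 cluster on chromosome 15 had 10 tested mature miRNAs, all with log2 fold changes above 0, and 7 rose. Its copy on the X chromosome, which shares mature sequences with it, had 4 rises among 7. The let-7e, miR-99b and miR-125a cluster on chromosome 1 had 3 falls among 6 and all 6 below 0. Signs were mixed for miR-93 and miR-25 on chromosome 12, with 3 of 4 above 0. That count leaves out miR-106b, which belongs to the same cluster and lies on the same chromosome and strand. Both arms of miR-106b rose. Signs were also mixed for miR-191a and miR-425 on chromosome 8, with 3 of 4 above 0. Beside miR-215 on chromosome 13, miR-194-5p did not pass the test. For miRNAs within genes, 12 listed host genes could be tested, and 5 were called, a share near the 42.3% of all genes. Those 5 had the direction of their miRNA, as did 8 of the 12 by sign, while Lpp, Ptk2, Nfyc and Mib1 ran opposite to miR-28, miR-151, miR-30e and miR-1 without passing the test. Mcm7 rose with its miRNAs. Pde2a, host of miR-139, was at 11.4 ± 3.11 RPKM in PSN and 2.32 ± 0.27 RPKM in PST (SD, n = 3), and fell (log2 fold change -2.04, adjusted p = 0.00027, limma). Ctdspl, Ctdsp1 and Trpm3, hosts of miR-26a, miR-26b and miR-204, also fell, and the call of Ctdsp1 was lost without PSN1, PSN3 or PST1 (highest adjusted p = 0.12) and that of Trpm3 without PSN3 (0.051). Egfl7, host of miR-126a, was at 14.03 to 20.59 RPKM in PSN and 9.12 to 20.2 RPKM in PST (adjusted p = 0.71).

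The same contrast on control diet, PCT against PCN, shares no library with PST against PSN. It gave 78 calls of 494 (15.8%), 30 higher in tumors (6.07%) and 48 lower (9.72%). Calls in common numbered 41, which is 37.6% of the SPI calls and 52.6% of the control diet calls, and all 41 had the same direction. Of the 109 SPI calls 102 had the same sign on control diet. The study, which used DESeq2, reports more miRNAs tied to tumor formation without SPI than in tumors of SPI-fed rats. The counts here, 109 on SPI and 78 on control diet, run in the reverse order, and the reason was not tested. Across the 494 miRNAs, which are not independent of each other, the log2 fold changes of the diets correlated with r = 0.72. The list medians were -2.13 on SPI and -2.55 on control diet for the muscle miRNAs, 1.14 and 1.00 for the miR-17/92 list, 0.31 and 0.98 for the list raised in colorectal cancer, -0.33 and 0.47 for the list of miR-10 and miR-196, and 0.53 and -1.02 for the endocrine and liver list. The 59 tested names of the Dlk1-Dio3 cluster had 20 falls on SPI and 10 on control diet (14.6% and 9.72% over all miRNAs). The differences between these lists' values were not tested.

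The difference between the diets was tested as an interaction, and no miRNA passed it in limma at an adjusted p below 0.05 (0 of 494, 33 at an unadjusted p below 0.05, smallest adjusted p = 0.31), nor under any alternative. The intervals stayed wide. For miR-143-3p the log2 fold change on SPI minus that on control diet was -0.02 (95% interval -0.97 to 0.92), and for miR-215 it was 0.34 (-0.87 to 1.56). For miR-21-5p, which was at 173357 to 201643 in PCN and 398154 to 479505 in PCT, it was 0.88 (0.02 to 1.74, adjusted p = 0.68). These data thus do not separate the diets for any miRNA, and the intervals do not show that the contrasts are the same.

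**Figure D5:**
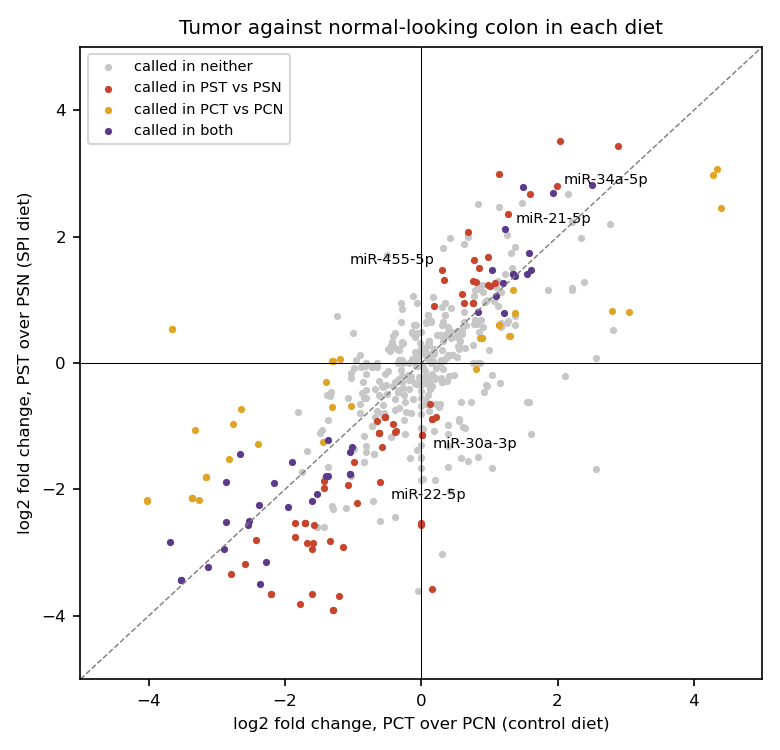
Log2 fold changes of tumor over normal-looking colon for 494 miRNAs on control diet (PCT over PCN, horizontal) and on SPI (PST over PSN, vertical), with colors for the contrast in which a miRNA was called and a dashed line of equal change. The 41 miRNAs called in both lie at the lower left and upper right, and miR-30a-3p, miR-22-5p and miR-455-5p lie off the line.

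The smallest interaction p belonged to miR-30a-3p, which shares reads with miR-30e-3p. It was at 6033, 4813 and 4484 in PSN, at 2491, 2381 and 2038 in PST, at 2971 to 3184 in PCN and at 2902 to 3350 in PCT. The log2 fold change was -1.14 on SPI (SE 0.22, adjusted p = 0.00068) and 0.01 on control diet, a difference of -1.16 (95% interval -1.81 to -0.51, unadjusted p = 0.0012, adjusted p = 0.31). The wild-type colon held it at 2429 to 3755 (WCN) and 3052 to 3585 (WSN), so that PSN was the high group and PST the low group of all 6. miR-22-5p fell on SPI and, unlike miR-30a-3p, was also lower in PCT than in PCN. It was at 81.7 to 132.9 in PCN and 66.0 to 70.4 in PCT (difference -1.28, -2.10 to -0.46, adjusted p = 0.38, limma). miR-28-3p and miR-151-5p, chosen after their values were seen, fell on SPI with log2 fold changes of -0.85 and -0.88, calls that were lost without PSN1 (adjusted p = 0.071 and 0.061) and under summed-count scaling (0.11 and 0.088), and had 0.22 and 0.16 on control diet (adjusted p of the difference 0.38 for both). miR-455-5p ran upward, with 137.6 to 277.1 in PSN and 352.9 to 733.9 in PST. On control diet it was counted at 295.8 to 332.4 (PCN) and 328.9 to 433.7 (PCT) (difference 1.17, 0.19 to 2.15, adjusted p = 0.68).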

How the data were processed

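Libraries were grouped by their labels. For small RNA-seq the authors removed adapters (cutadapt), counted identical reads as 1 entry with its number and searched rat miRBase mature miRNAs by blastn, and their processing notes name Bowtie2 and DESeq2. Neither a genome build nor tool versions are named in the sources. The deposited values are a signal per miRNA, reads divided by 1 factor for each library. Read depths were inferred from the step between values, the smallest value being 2 reads, with every value within 0.001 of a whole multiple. A read can count under several names, and floors cover counting error only. RNA-seq was deposited by the authors as RPKM.

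Of 559 miRNAs, 494 had a value of at least 1 in at least 3 of 18 libraries. limma 3.58.1 (R 4.3.3, trend and robust moderation) was fitted to log2(value + 0.5) over all 18 libraries and 6 groups, with Benjamini-Hochberg adjustment, and likewise to 11544 genes at 1 RPKM or more in 3 libraries (26 entries with names turned into dates were left out). On simulated data for PST vs PSN with 491 miRNAs, 31.7% of log2 changes of 1 and 75.7% of log2 changes of 2 were recovered, and 4.34% of calls were false. The simulated miRNAs were drawn independently of each other, with the same dispersion for all and no shared reads. The share of false calls in the real data was not measured. Per the study, Pirc normal-looking colon and tumor came from the same rat. Deviations of same-numbered PSN and PST libraries correlated with r of 0.15, -0.02 and -0.04, and those of differently numbered ones with r of -0.20 to 0.21. A fit with same-numbered libraries as a replicate block was an alternative, although no label states that these are the same rat. Named miRNAs were both arms of miR-215, miR-143, miR-145, miR-34a and miR-21, the 15 largest non-overlapping rises and falls (mean 50 or more), and the 4 most abundant members of each list. Named beyond that rule were miRNAs with the seed or hairpin of a named one, called miRNAs that match a listed host gene or share a list, and those said to be chosen after their values were seen. The miRNAs, lists and tests were chosen with earlier results of these data known. The p-values rest on the spread between libraries within the 6 groups of 3, pooled over all 18 libraries and moderated across miRNAs or genes. The main fit did not use the pairing of tissues.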

Additional observations from a re-analysis of the deposited data

How the results depend on the processing

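The number of miRNAs called between PST and PSN was 109, 37 higher and 72 lower. It fell to 67 (22 higher and 45 lower) when the fit used only the 6 libraries of the comparison, and all 67 were among the 109. Scaling to summed counts gave 66 higher calls. Leaving out 1 library at a time gave 63 to 125 calls, 24 to 45 higher and 38 to 80 lower, with the lowest total without PSN1 and the highest without WCN1. The cause of these shifts was not tested beyond the smaller number of libraries. With same-numbered libraries as a replicate block, 101 miRNAs were called (35 higher and 66 lower), of which 95 were among the 109. The interaction with diet gave 0 calls under every alternative fitted. For 80 named miRNAs, 2253 of 2317 alternative values kept their direction and side of the threshold, 40 lost the call, 24 gained it and none reversed. The planned count tests with edgeR and DESeq2 were not run, because whole reads could not be recovered to the required rule. The shallow PST2 library, at 724954 reads, limits statements on scarce miRNAs, and 28 called miRNAs were at 0 in it.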
